A study of Mus musculus with 4 samples.

Results

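The locus examined here is the stretch of mouse chromosome 6 that holds the genes Gdf3, Dppa3, Nanog and Slc2a3, between 122.55 and 122.85 Mb of the GRCm38 assembly. Its members were all rows of a table of H3K27ac HiChIP read-pair counts that lie on chromosome 6 and have at least 1 anchor overlapping that window; the rule used no count. It found 995 pairs of anchors among the 1513030 pairs of the table. An anchor is a genomic interval between which contacts were counted, and a pair of anchors is also called a loop, whether or not its count exceeded a background. The window holds 16 anchors, of which 118 of the 120 possible pairs had a count, and the other 877 members joined 1 of these anchors to 1 of 100 anchors outside the window.

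HiChIP ligates DNA ends that lie close together in fixed nuclei and then enriches the ligated fragments with an antibody, here against H3K27ac, a histone mark of active promoters and enhancers. A count therefore depends both on contact and on the mark, and more contact and more mark cannot be told apart in these data. The cells were mouse embryonic stem cells of 2 inbred strains: C57BL/6J (B6; lines B6 4-1 and B6 5-1, replicates 1 and 2) and DBA/2J (D2; lines D2 2-9 and D2 5-5, replicates 1 and 2), 1 library per line, with no treatment that differed between strains. All 4 lines were grown in serum medium with LIF and the inhibitors PD0325901 (of MEK) and CHIR99021 (of GSK3), fixed with 1% formaldehyde for 10 minutes and digested with DpnII. Fold changes are D2 over B6 throughout, and with 2 lines a strain their errors are those between lines.

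Nanog encodes a homeodomain transcription factor that sustains self-renewal of embryonic stem cells, and it is a classic target of Oct4 and Sox2. Dppa3 (Stella) is a germ cell and oocyte factor that protects DNA methylation in the early embryo, Gdf3 is a TGF-beta family ligand that acts in Nodal signalling, and Slc2a3 encodes the glucose transporter GLUT3. The 4 genes sit side by side and are expressed together in pluripotent cells, and enhancers of Nanog are known about 5 kb and 45 kb before its start and about 60 kb after it.

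Motif matches in some anchors of these genes and elements are shown here, because those anchors hold many of the counts of the locus. Whether they mark the enhancers was not tested. Of the 4 genes, 1 (Nanog) has an entry in the RefSeq promoter table (GRCm38.p6); Gdf3, Dppa3 and Slc2a3 have none. The 250 bases before the Nanog start, chr6:122707239-122707488, plus strand, hold an Oct4-Sox2 composite motif (reverse strand, in capitals) 75 bp before the start at 122707489, and a match to this motif was found in 0.086% of 31396 promoters of 300 bases:
Nanog promoter: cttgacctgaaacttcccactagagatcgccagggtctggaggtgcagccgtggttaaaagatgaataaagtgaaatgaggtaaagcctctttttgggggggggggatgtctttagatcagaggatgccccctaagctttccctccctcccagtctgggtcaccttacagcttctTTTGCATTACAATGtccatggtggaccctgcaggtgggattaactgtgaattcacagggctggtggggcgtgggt
The anchor that holds the position 45 kb before the start contains, at chr6:122660649-122660788 on the plus strand and between genes, a match to the core of the CTCF motif followed 79 bp later by an octamer ATGCAAAT, the Oct4 site (both in capitals, both on the forward strand):
45 kb upstream: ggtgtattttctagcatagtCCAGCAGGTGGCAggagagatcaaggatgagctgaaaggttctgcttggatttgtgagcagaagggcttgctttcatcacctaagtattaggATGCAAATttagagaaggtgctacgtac
The Dppa3 anchor contains a pair of octamers 36 bp apart, at chr6:122624617-122624708, 1729 and 1773 bp before the annotated start of the gene (reverse strand, in capitals):
Dppa3 upstream: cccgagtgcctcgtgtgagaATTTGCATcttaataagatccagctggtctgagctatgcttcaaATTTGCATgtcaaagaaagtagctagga
The anchor that holds the position 60 kb after the Nanog start contains the other Oct4-Sox2 composite match of the 16 anchors, 78.7 kb after the start in an intron of Slc2a3, at chr6:122786197-122786270 (forward strand, in capitals):
60 kb downstream: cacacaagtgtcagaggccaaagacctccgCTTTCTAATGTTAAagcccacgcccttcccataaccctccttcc
The cores of the CTCF motif in the Nanog and Slc2a3 anchors lie in introns of those genes, at chr6:122709000-122709032 and chr6:122740126-122740158 (forward strand, in capitals):
Nanog CTCF core: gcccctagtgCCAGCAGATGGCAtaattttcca
Slc2a3 CTCF core: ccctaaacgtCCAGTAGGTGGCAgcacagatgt

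These motifs were searched on both strands, and a match is a description of the letters and not a bound site. The CTCF core was found on the forward strand in the Gdf3, 45-kb-upstream, Nanog and Slc2a3 anchors. Of these, only the copy in the Gdf3 anchor lies in a soft-masked repeat. Of windows of chromosome 6 as long as the 45-kb-upstream anchor, 5.93% hold at least 1 CTCF core, and 78.2% hold at least 1 octamer, so the octamer is common at that length. At least 2 octamers are held by 20.0% of windows as long as the Dppa3 anchor. An Oct4-Sox2 composite is held by 9.00% of windows as long as the Nanog anchor and by 9.56% of windows as long as the 60-kb-downstream anchor. The composite can overlap the octamer in part of its letters, and neither composite match here includes the octamer in full. The Esrrb motif TCAAGGTCA occurs 5 times in the 60-kb-downstream anchor, as many as or more than in all but 0.593% of 3712 windows of its length, and all 5 copies lie in soft-masked repeats.

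The libraries held between 2767882 and 2944258 counts, and 995 pairs of the locus took 5717, 5525, 9079 and 6984 of them in B6 replicates 1 and 2 and D2 replicates 1 and 2. D2 replicate 1 stood apart: 24.9% of its counts fell in the 10000 pairs with the most counts over all libraries, against 20.2% to 21.8% in the other libraries, and its library name carries the mark 10cyc where the others carry 8cyc, a mark that is not explained in the labels. Fold changes of named anchors and loops are given with and without it, and without it the single remaining D2 library is assumed to vary as the B6 libraries do. Start-site anchors were present for 6 of 7 embryonic stem cell marker genes (not Esrrb), with sums of 1536 to 2368 CPM (counts divided by the library total and multiplied by 1000000). Primitive endoderm markers summed to 101 to 115 CPM, trophoblast markers to 134 to 149 CPM and markers of primed cells or germ layers to 231 to 247 CPM. These sums run over unequal numbers of anchors of unequal width: 6, 5, 2 (of 4 trophoblast genes) and 7. Per kb the lists lay closer. The medians were 6.43 CPM per kb for embryonic stem cell, 4.26 for primitive endoderm, 6.08 for trophoblast and 3.72 for primed or germ layer markers. Of the 7 primed or germ layer markers, 2 (Sox1 and Eomes) were called higher in D2 and 0 lower (edgeR, adjusted p under 0.05). Over all anchors tested, 2.67% were called higher and 7.08% lower. The log2 fold changes of Sox1 and Eomes were 0.60 and 0.54, and 0.40 and 0.52 without D2 replicate 1. DESeq2 called 0 of the 7 in either direction. The median log2 fold change of the 7 was -0.06, and -0.10 without that library. The fibroblast genes Col1a1, Col1a2 and Col3a1 had no start-site anchor, with 6.86 to 11.4 CPM over the other 3 fibroblast genes. The submitters' processing notes name mm10, an assembly of C57BL/6J, and the effect of DBA/2J sequence differences on mapping was not tested.

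The 16 anchors differ widely in count, and those over Nanog, the main starts of Slc2a3 and the region 60 kb downstream of Nanog held the most. Each starts and ends at a DpnII site (GATC), as did all 3268 anchors of chromosome 6. The anchor with the most counts was the 60-kb-downstream anchor (chr6:122755688-122795197), which ranked 4 among all 56562 anchors of the table. It lies within the annotated body of Slc2a3 (122727809 to 122801640, minus strand), upstream of the main starts of that gene and over 1 alternative start. The Nanog anchor (chr6:122683975-122721348, which includes the position 5 kb before the start) ranked 22, and the Slc2a3 anchor over 6 of its annotated starts (chr6:122724390-122753817) ranked 23.

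The other named anchors carried fewer counts. The 45-kb-upstream anchor (chr6:122659514-122677119), which overlaps no annotated start, had more counts than 99.5% of all anchors. The anchor over the starts of Gdf3 and of Apobec1, which encodes an RNA-editing cytidine deaminase (chr6:122585740-122613148), had more than 99.4%. The anchor over the start of Foxj2, a forkhead transcription factor (chr6:122807919-122835494), had more than 99.6%, the anchor of Dppa3 (chr6:122622347-122631047) more than 95.7%, and the anchor over the most distal Slc2a3 start (chr6:122798575-122806936) more than 95.4%. Anchors differ in width, so levels are compared per kb: in B6, Dppa3 had 15.3 CPM per kb, Nanog 13.6, Slc2a3 17.7, Gdf3 10.8, the 45-kb-upstream anchor 15.9 and the 60-kb-downstream anchor 15.9. In D2 the same values were 19.4 for Dppa3, 20.99 for Nanog, 26.0 for Slc2a3, 15.0 for Gdf3, 25.2 for the 45-kb-upstream anchor and 25.6 for the 60-kb-downstream anchor. Per kb the Dppa3 anchor thus lay between Nanog and Slc2a3 in B6 and below both in the D2 mean. The order in the D2 mean rested on D2 replicate 1. In D2 replicate 2, Dppa3 (156 CPM over 8.7 kb) lay between Nanog (588 CPM over 37.4 kb) and Slc2a3 (659.9 CPM over 29.4 kb).

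**Figure D1:**
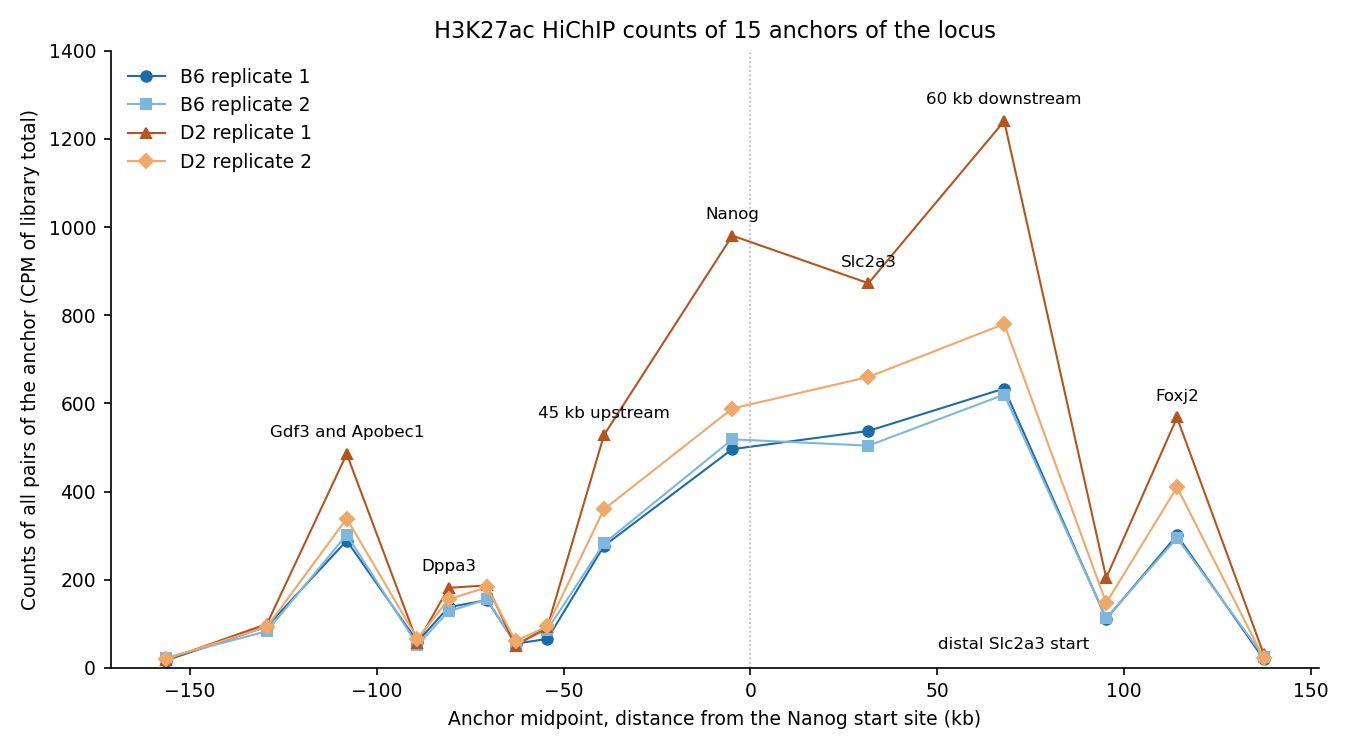
Counts of 15 of the 16 anchors (sum over all pairs that use it, in CPM of the library total) against the distance of the anchor's midpoint from the Nanog start in kb, 1 line and marker per library. The 2 B6 libraries lie close together at every named anchor, D2 replicate 1 is the highest at the 9 anchors from Gdf3 to Foxj2 that hold over 100 CPM in every library, and D2 replicate 2 lies between it and B6 there.

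Within the window, the counts gathered on pairs among 6 broad anchors of at least 15 kb (Gdf3, 45 kb upstream, Nanog, Slc2a3, 60 kb downstream and Foxj2; this width limit was chosen after the values were seen). The 15 pairs among them held 62.6% and 61.6% of the within-window counts in B6 and 70.3% and 63.6% in D2 replicates 1 and 2. The authors' q-value, taken as the caller's test of a pair against background in 1 library, was under 0.01 for all 15 in all 4 libraries. Of the 118 within-window pairs, 42 reached that q-value in all 4 libraries and 64 in at least 1.

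The Slc2a3 anchor and the 60-kb-downstream anchor formed the pair with the most counts of the whole table, with 590 and 508 counts in B6 and 1002 and 700 in D2. The 1002 counts of D2 replicate 1 are also the highest count of any pair in any library. This pair joins the main starts of the glucose transporter gene to a region inside the long transcripts of the same gene, with midpoints 36.3 kb apart. It took 36.9% ± 1.25 of what the Slc2a3 anchor held in B6 and 38.8% ± 3.86 in D2 (mean ± SD over 2 libraries each, as for the shares that follow), so its share differed by less than the spread between the D2 lines.

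Nanog shared its counts among 3 neighbours. The 60-kb-downstream anchor took 22.2% ± 2.54 of the counts of the Nanog anchor in B6 and 24.8% ± 2.84 in D2. The Slc2a3 anchor took 20.3% ± 0.676 and 18.7% ± 2.60, and the 45-kb-upstream anchor 15.2% ± 0.751 and 16.6% ± 0.911. These 3 partners held over 50% of the counts of the Nanog anchor, which had 97 partners in all. The next partner, Foxj2, took 6.42% ± 0.363 in B6 and 7.89% ± 0.0493 in D2. The difference exceeded the summed SD of the strains for Foxj2 and not for the other 3. Over the first 5 partners of 6 anchors (the 4 genes and the 2 distal elements), 7 of 30 shares differed by more than that sum, 6 of them higher in D2, and none of these differences can reach 0.05 with 2 libraries a strain.

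Gdf3 and Dppa3 were less concentrated. The 5 partners of Gdf3 with the most counts were the 60-kb-downstream anchor (9.91% ± 0.697 of its counts in B6), Nanog (9.62% ± 0.392), Slc2a3 (6.88% ± 0.631), Dppa3 (6.82% ± 0.212) and the anchor next to Dppa3 (7.71% ± 0.626), so that 6 partners were needed to reach 50%. The first partner of Dppa3 was Gdf3, with 15.2% ± 1.72 of its counts in B6 and 18.6% ± 2.18 in D2, followed by the neighbouring anchor 10.3 kb away and by Nanog. Nanog took 9.30% ± 1.34 of the counts of Dppa3 in B6 and 10.4% ± 0.209 in D2.

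Among the pairs of the 4 genes, Nanog and Slc2a3 had the most counts and the 3 pairs of Dppa3 the fewest. Nanog and Slc2a3, 36.4 kb apart, had 300 and 288 counts in B6 and 458 and 356 in D2, which ranked 9 among 15251 pairs of the table within 10% of that distance and 9 among the 144 of those in which the geometric mean of the anchor widths was also similar (0.75 to 1.33 times). Gdf3 and Nanog, 103 kb apart, had 83 and 79 counts in B6 and 160 and 90 in D2 and ranked 48 of 36551, or 38 of 210 at similar widths. Gdf3 and Slc2a3 had 54 and 62 counts in B6 and 93 and 91 in D2, and ranked 43 of 328 at similar distance and widths. Gdf3 and Dppa3 had 56 and 59 counts in B6 and 101 and 78 in D2, and ranked 144 of 865. Dppa3 and Nanog had 41 and 30 counts in B6 and 53 and 47 in D2 and ranked 208 of 1133. Dppa3 and Slc2a3 had 30 and 27 counts in B6 and 33 and 20 in D2 and ranked 297 of 2175, the only one of these 6 pairs in which the strains overlapped. At similar distance and widths, Nanog with Slc2a3 thus stood nearest the top, and the pairs of Dppa3 were placed much like those of Gdf3 with Nanog.

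**Figure D2:**
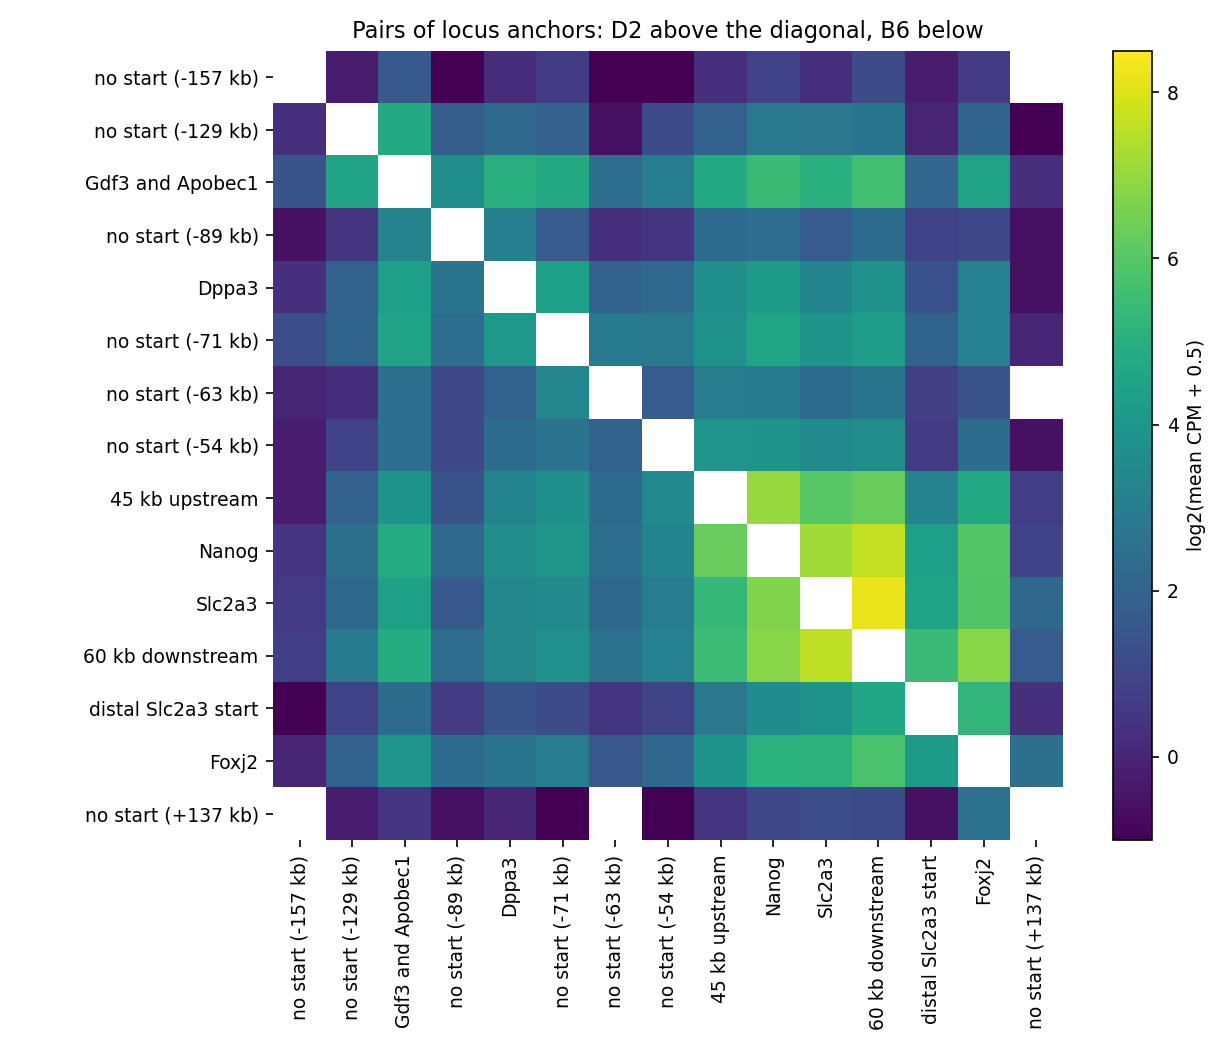
Mean CPM of each pair of 15 of the 16 locus anchors on a log2 scale (log2 of CPM plus 0.5), anchors in genome order from upstream (top, left) to downstream, D2 above the diagonal and B6 below it; white cells are the diagonal and the pairs with no count. The brightest block is formed by the 45-kb-upstream, Nanog, Slc2a3 and 60-kb-downstream anchors in both strains, with lines of intermediate counts from it to Gdf3 and Foxj2.

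The locus as a whole had more counts in D2, and much of the difference came from 1 library. Its members made up 0.197% ± 0.000487 of the library in B6 and 0.283% ± 0.0642 in D2 (± SD, 2 libraries each), 1.44 times as much. D2 replicate 2 alone was 1.20 times the B6 mean. The ratio was larger within the window than to the outside: 1308 ± 7.53 CPM in B6 and 1996 ± 500.1 CPM in D2 within it, 1.53 times as much (1.26 times in D2 replicate 2 alone), and 661 ± 12.4 CPM against 829.9 ± 142 CPM to the outside, 1.26 times as much (1.10 times in D2 replicate 2 alone). The within-window share of the counts of the locus was 66.8% and 66.0% in the B6 libraries and 71.6% and 69.2% in the D2 libraries. For each of these values both D2 libraries lay above both B6 libraries, which gives p = 0.33 in a two-sided exact permutation test, the smallest p that 2 against 2 libraries allow. None of them could reach a threshold of 0.05.

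Divided into 300-kb windows, the table gave 1692 windows with at least 1000 counts, and the ratio of D2 to B6 counts in the locus lay above 97.6% of them (log2 ratio 0.61, median of the windows 0.11). The ratio of D2 replicate 1 to D2 replicate 2 in the locus lay above 99.1% of the windows (log2 0.52, median 0.01), and the ratio of D2 replicate 2 to B6 above 87.5% (log2 0.33, median 0.11). The locus thus ranked higher for the difference between the 2 D2 lines than for that between D2 replicate 2 and B6.

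By anchor, 6 of the 16 rose in D2 and 0 fell (edgeR's quasi-likelihood test, Benjamini-Hochberg adjustment over all 51820 anchors tested, adjusted p under 0.05; this is what "called" means below). Over all anchors tested, 2.67% were called higher in D2 and 7.08% lower. With DESeq2, 2 were called higher and 0 lower, against 0.459% and 2.06% of all anchors. With edgeR 9 had an unadjusted p under 0.05 in the higher direction and 0 in the lower, against 8.77% and 13.2% of all anchors. The 6 form an unbroken run from the 45-kb-upstream anchor to Foxj2. Both D2 libraries lay above both B6 libraries at 10 of 16 anchors, against 21.5% of all anchors tested. The log2 fold change was above 0 in 15 of 16, against 50.6% of all anchors, with a median of 0.36 against 0.01. Each within-window pair counts towards 2 anchors, so the anchors are not independent. Such pairs held 68.2% (Foxj2) to 86.5% (45 kb upstream) of the B6 counts of the 6.

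The Nanog anchor had 496 and 518 CPM in B6 and 981 and 588 CPM in D2. D2 replicate 1 was far above the other 3 libraries, and D2 replicate 2 was above both B6 libraries by a small margin. On the log2 scale D2 was 0.68 ± 0.21 above B6 (edgeR, adjusted p = 0.0263; ± values of log2 fold changes are standard errors), and 0.19 above it without D2 replicate 1.

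Slc2a3, the glucose transporter gene, had a larger difference than Nanog between D2 replicate 2 and B6, a contrast between anchors that was not tested. Its main anchor had 537 and 504 CPM in B6 and 873 and 659.9 CPM in D2, with a log2 fold change of 0.60 ± 0.20 (edgeR, adjusted p = 0.0392) and 0.32 without D2 replicate 1. The anchor over its most distal start had 111 and 113 CPM in B6 and 204 and 147 CPM in D2, with a log2 fold change of 0.69 ± 0.17 (edgeR, adjusted p = 0.00481) and 0.37 without D2 replicate 1. The strains did not overlap at either anchor.

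The anchors of the known enhancers moved in the same direction. The 45-kb-upstream anchor had 277 and 282 CPM in B6 and 528 and 359.7 CPM in D2 (log2 fold change 0.71 ± 0.19, edgeR adjusted p = 0.00835; 0.34 without D2 replicate 1). The 60-kb-downstream anchor had 634 and 619.8 CPM in B6 and 1240.3 and 780.2 CPM in D2 (0.74 ± 0.21, edgeR adjusted p = 0.0159; 0.29 without D2 replicate 1). Foxj2, at the downstream end of the run, had 301 and 295 CPM in B6 and 568 and 409.6 CPM in D2 (0.76 ± 0.19, edgeR adjusted p = 0.00437; 0.44 without D2 replicate 1), the largest fold change of the 16 anchors both with all libraries and without D2 replicate 1.

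Gdf3 and Dppa3 did not pass in this fit, and their call depended on the setting. The Gdf3 anchor had 288 and 302 CPM in B6 and 485 and 339 CPM in D2, with a log2 fold change of 0.53 ± 0.19 (edgeR, adjusted p = 0.0630) and 0.18 without D2 replicate 1. The Dppa3 anchor had 138 and 128 CPM in B6 and 181 and 156 CPM in D2, with a log2 fold change of 0.38 ± 0.16 (edgeR, adjusted p = 0.147) and 0.21 without D2 replicate 1. Gdf3 was called higher with library totals without TMM factors, with chromosome 6 totals, with a replicate block and without D2 replicate 2, and Dppa3 without D2 replicate 2, among 12 alternatives each. At both anchors the D2 libraries lay above both B6 libraries. Whether Gdf3 and Dppa3 differ from Nanog and Slc2a3 in their response was not tested.

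Without D2 replicate 1, 0 of the 16 anchors were called with edgeR, and 5 had an unadjusted p under 0.05, all higher in D2, as had 5.04% of all anchors. Over all anchors 0.625% were then called higher. Without B6 replicate 1 or without B6 replicate 2, 0 of 16 were called (0.714% and 1.1% of all anchors higher), and without D2 replicate 2, 8 were (7.37% of all anchors higher). Width moved with the difference. The 6 broad anchors had log2 fold changes of 0.53 to 0.76 and a median log2 ratio of D2 replicate 1 to D2 replicate 2 of 0.54. The 10 narrower anchors had medians of 0.23 and 0.01. Among these, the called anchor over the distal Slc2a3 start (8361 bp) had 0.69 and 0.47. Position moved with the difference too. The 7 anchors from 45 kb upstream on had a median log2 fold change of 0.69, and the 9 before them 0.19. Over the whole table, the 3799 anchors of at least 15 kb had a median log2 fold change of 0.13, with 7.48% called higher in D2, against a median of -0.01 and 2.29% among narrower ones. The part of anchor width, of position and of D2 replicate 1 in the calls of the locus was not tested beyond these values.

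**Figure D3:**
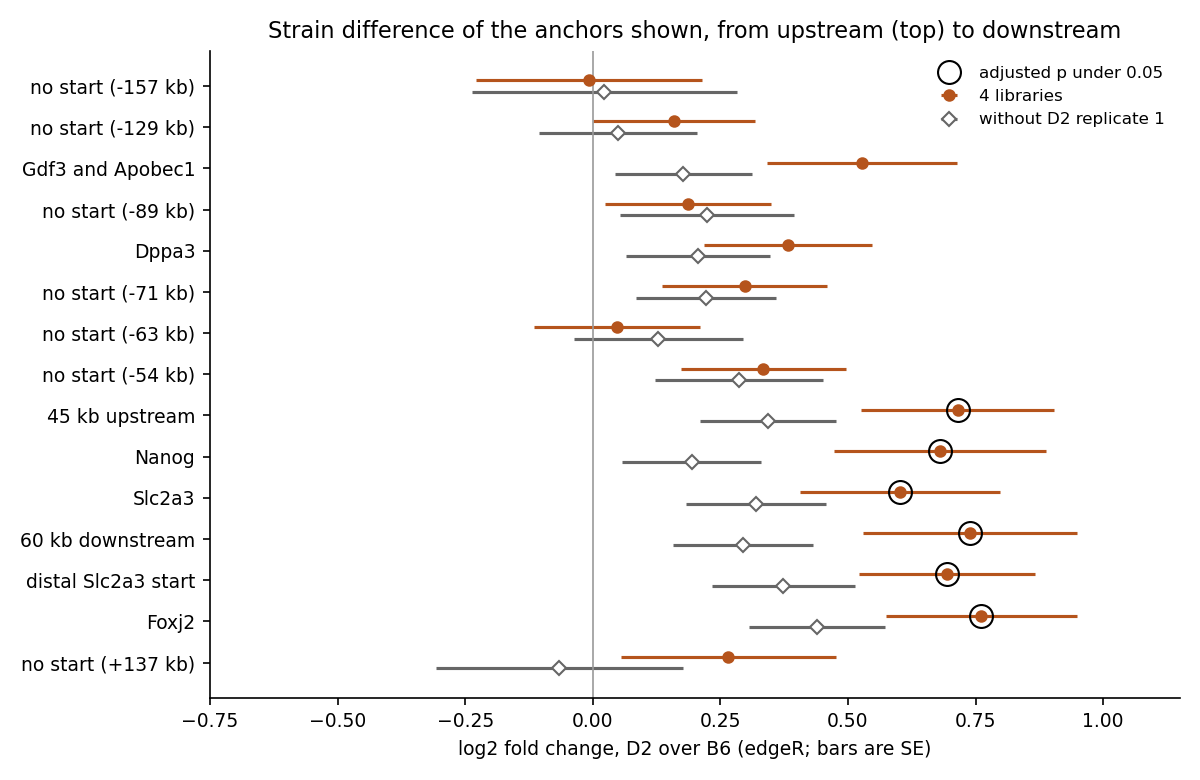
Log2 fold change of D2 over B6 for 15 of the 16 anchors in genome order (edgeR, bars are SE), with all 4 libraries (filled) and without D2 replicate 1 (open); rings mark adjusted p under 0.05 and anchors over no start of a gene are named by the distance of their midpoint from the Nanog start. The 6 ringed anchors run from 45 kb upstream to Foxj2, and the open symbol of each lies between 0.19 and 0.44.

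Of the 995 loops, 174 had at least 20 counts over the 4 libraries and were tested, 78 of them within the window. Tested loops made up 17.5% of the members and 7.14% of all pairs, and 268 members (26.9%) rested on a single count. The 821 untested members held 12.8% of the counts of the locus. By edgeR, 5 tested loops rose in D2 and 0 fell (Benjamini-Hochberg over 108034 tested loops), where 0.492% of all tested loops were called higher and 0.957% lower. At an unadjusted p under 0.05, edgeR had 35 higher and 1 lower, against 5.34% higher and 6.4% lower over all tested loops. DESeq2 called 0 in either direction, where it called 0.0305% of all tested loops higher and 0.0444% lower. At an unadjusted p under 0.05 it had 12 higher and 0 lower, against 0.835% and 1.35% over all.

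Foxj2 is an end of 3 of the called loops. The loop from the 60-kb-downstream anchor to Foxj2 had 185 and 123 counts in B6 and 365 and 263 in D2, which is 0.97 ± 0.22 higher on the log2 scale (edgeR, adjusted p = 0.00243). The loop from the distal Slc2a3 start to Foxj2 had 51 and 50 counts in B6 and 124 and 92 in D2 (1.03 ± 0.24, edgeR adjusted p = 0.00463). The loop from Nanog to Foxj2, 119 kb long, had 89 and 97 counts in B6 and 215 and 136 in D2 (0.85 ± 0.23, edgeR adjusted p = 0.0184). In all of these the D2 libraries lay above both B6 libraries, with D2 replicate 1 the highest. Without it the log2 fold changes were 0.67, 0.76 and 0.44, in the same order.

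The other called loops end at the 60-kb-downstream anchor. Its loop with Nanog, an enhancer-to-promoter pair by the known role of that region, had 294 and 348 counts in B6 and 728 and 395 in D2 (0.75 ± 0.22, edgeR adjusted p = 0.0442). D2 replicate 2 was here close to B6 replicate 2, and without D2 replicate 1 the log2 fold change was 0.19. Its loop with an anchor over starts of Rimklb, which encodes an enzyme of N-acetylaspartylglutamate synthesis (chr6:122482522-122497536), had 22 and 14 counts in B6 and 45 and 37 in D2 (1.12 ± 0.32, edgeR adjusted p = 0.0364). This loop spans 285 kb and is the only called one that leaves the window; its log2 fold change without D2 replicate 1 was 0.93.

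The pairs with the most counts were not all called. The pair of Slc2a3 and the 60-kb-downstream anchor had a log2 fold change of 0.57 ± 0.22 (edgeR, adjusted p = 0.204), and 0.24 without D2 replicate 1. Nanog with its 45-kb-upstream anchor had 227 and 213 counts in B6 and 469 and 277 in D2 (0.70 ± 0.22, edgeR adjusted p = 0.0668), and 0.22 without D2 replicate 1. Nanog with Slc2a3 had a log2 fold change of 0.41 ± 0.22 (edgeR, adjusted p = 0.452), and 0.17 without D2 replicate 1. Dppa3 with Slc2a3 was the only pair of the 4 genes with a value below 0 (log2 fold change -0.17 ± 0.31, edgeR adjusted p = 0.910; -0.62 without D2 replicate 1).

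**Figure D4:**
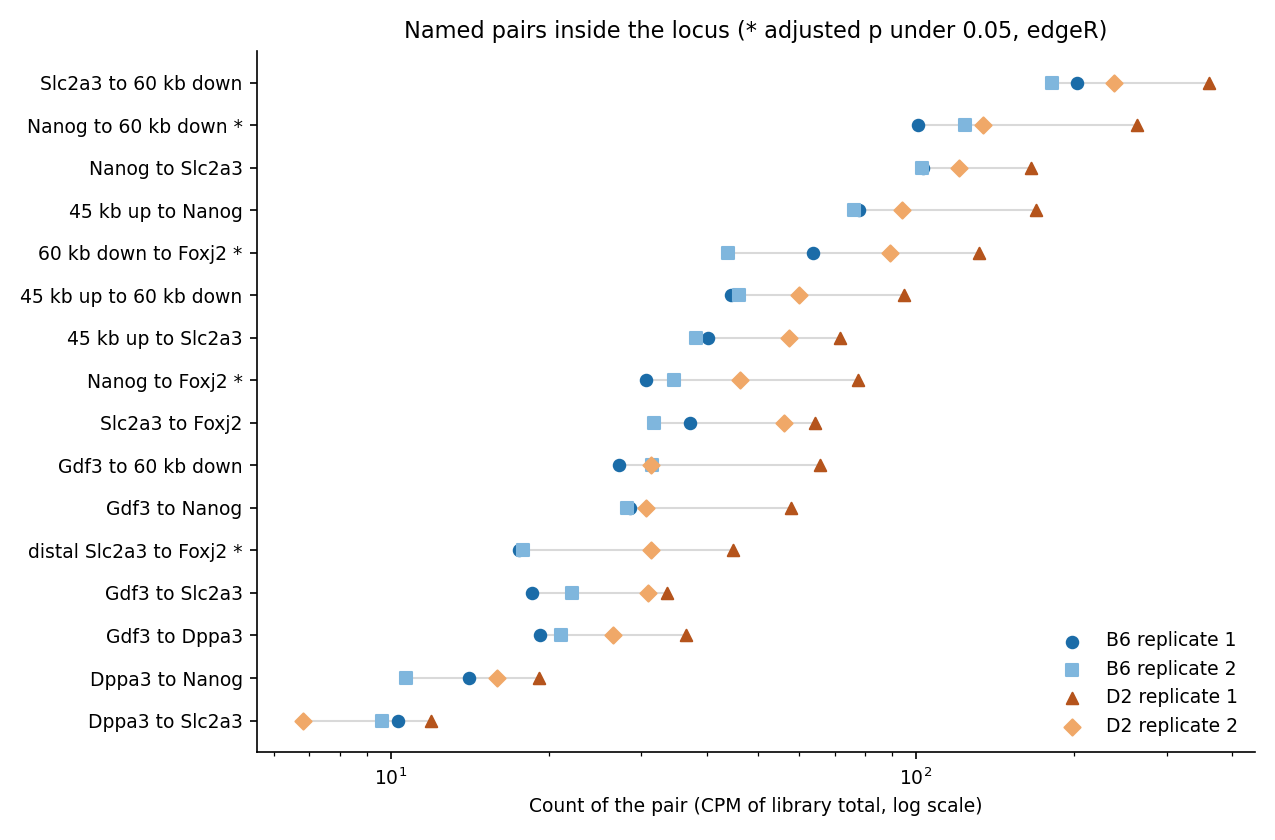
Count of each named pair within the window in CPM of the library total (log axis), 1 marker per library, ordered by the D2 mean; an asterisk marks adjusted p under 0.05. D2 replicate 1 is the highest library in all 16 pairs shown, and in Gdf3 to 60 kb downstream and Dppa3 to Slc2a3 the other D2 library falls within or below the B6 values.

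As a group the tested loops leaned towards D2. The log2 fold change was above 0 in 138 of 174, against 51.1% of all tested loops, with a median of 0.41 against 0.02. Both D2 libraries lay above both B6 libraries in 79 of 174 (45.4%, against 23.8% of all tested loops). Both B6 libraries lay above both D2 libraries in 5, and the share of all loops that did so was not computed. Loops of the locus share anchors and are not independent. The 15 pairs among the broad anchors had log2 fold changes of 0.41 to 0.97 with a median of 0.70, and 13 of them did not overlap between strains in the D2 direction. Without D2 replicate 1 they ranged from -0.07 to 0.67 with a median of 0.30. The other 63 tested loops within the window had a median of 0.27, and 0.20 without that library.

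Without D2 replicate 1 the median over the 174 loops was 0.18, 111 were above 0, and 0 were called with edgeR (15 higher and 1 lower at an unadjusted p under 0.05, against 3.18% and 4.94% of all tested loops; 0.106% of all were called higher). Leaving out B6 replicate 1 gave 1 call, leaving out B6 replicate 2 gave 0, and leaving out D2 replicate 2 gave 19, where 0.0555%, 0.0852% and 1.08% of all tested loops were called higher. The 10 members among the 1000 pairs with the most counts of the table had a median log2 ratio of D2 replicate 1 to D2 replicate 2 of 0.64, against 0.26 over the 1000. Of those 10, 9 had both D2 libraries above both B6 libraries, as had 48.9% of the 1000.

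Beyond the window, the locus met a small set of neighbours. The 5 outside anchors with the most counts held 45.1% of the counts to the outside. They lie over starts of Necap1, a factor of clathrin-mediated endocytosis (chr6:122868158-122886131), of Rimklb (2 anchors), of C3ar1, the receptor of the complement fragment C3a, and of Mfap5, a microfibril protein of the extracellular matrix. The Necap1 anchor had 258 and 262 counts with the locus in B6 and 406 and 349 in D2, and the C3ar1 anchor 89 and 74 in B6 and 169 and 120 in D2, without overlap of the strains. The Rimklb anchor with more counts (chr6:122461488-122480049) had 208 and 216 in B6 and 285 and 220 in D2, and the strains overlapped in CPM. The other Rimklb anchor had 158 and 165 counts in B6 and 230 and 190 in D2, without overlap. The Mfap5 anchor had 107 and 106 counts in B6 and 121 and 99 in D2, with overlap.

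Members to the outside split by distance. Loops under 500 kb numbered 264 and carried 440 and 453 CPM in B6 and 658 and 534 CPM in D2. Between 500 and 1000 kb there were 46, with 11.6 to 13.6 CPM in every library, across stretches of up to 361 kb without an anchor downstream and 291 kb upstream. Over 1000 kb there were 567 loops of low counts each, which together carried 199 and 205 CPM in B6 and 260 and 182 CPM in D2, so the strains overlapped there. The distance limits were chosen after the values were seen.

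The 20 tested loops over 1000 kb ended at 9 anchors. They all had a q-value under 0.01 in the 4 libraries, which takes few counts at such distances. A pair 1956 kb apart with 2 counts in B6 replicate 1 already had a q-value of 0.000197 there. Tested loops had at least 20 counts over the 4 libraries, so this q-value says little about them. Of the 20, 17 lay on the downstream side, 1626 to 1995 kb from their locus anchor. Their far ends include anchors over the starts of Clstn3, a synaptic adhesion protein gene, of Emg1, Lpcat3 and Phb2, of Atn1 and Ptpn6, and of the glycolytic genes Tpi1 and Eno2. Of these the loop with the most counts, from the 60-kb-downstream anchor to the anchor of Atn1 and Ptpn6, had 13 and 12 counts in B6 and 26 and 17 in D2 (log2 fold change 0.71, edgeR adjusted p = 0.478; 0.33 without D2 replicate 1). With edgeR and DESeq2, 0 of the 20 were called and 0 had an unadjusted p under 0.05. Their median log2 fold change was 0.25 with all libraries and -0.47 without D2 replicate 1, so its sign rested on that library.

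**Figure D5:**
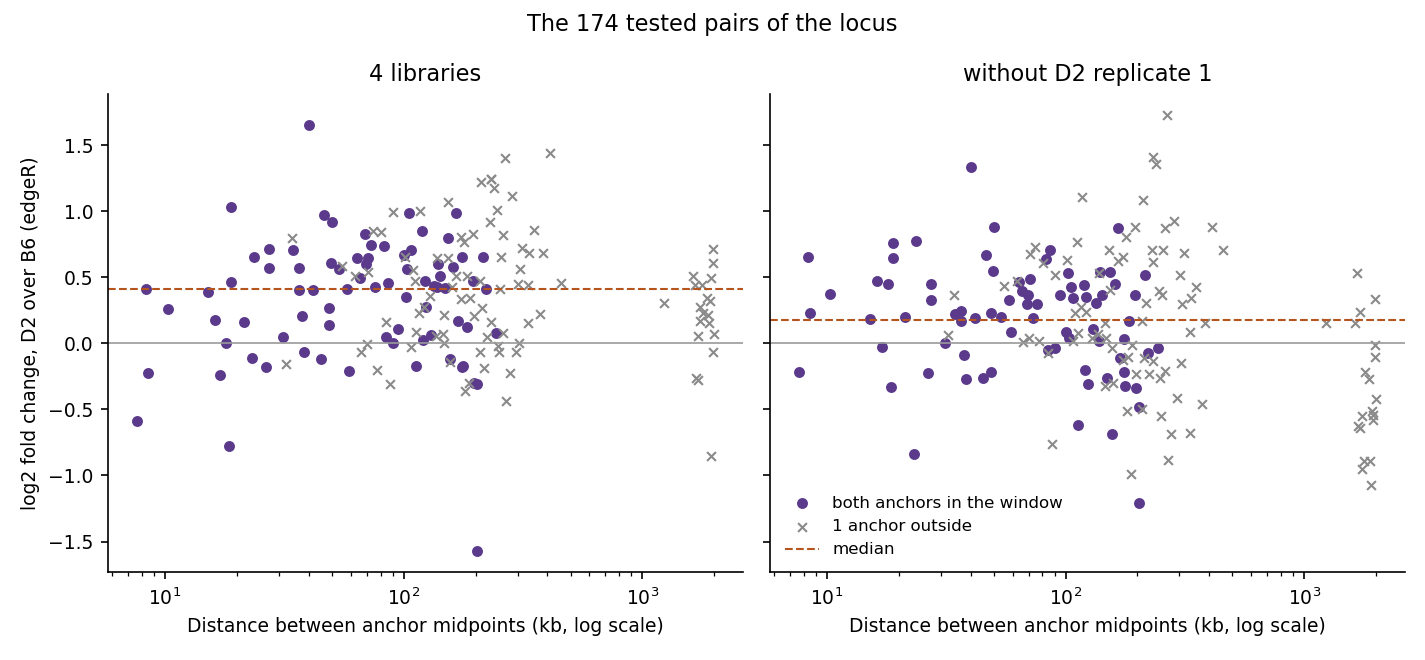
Log2 fold change of D2 over B6 (edgeR) of the 174 tested loops against the distance between anchor midpoints (log axis, kb), for loops with both anchors in the window (filled) and with 1 outside (crosses), with all 4 libraries (left) and without D2 replicate 1 (right); the dashed line is the median. The median falls from 0.41 to 0.18, and the 20 loops over 1000 kb move from mostly above 0 to mostly below.

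Start-site anchors of related genes give the setting of these values. Of 20 pluripotency genes, 14 had an anchor. With edgeR 2 were called higher in D2 (Sox2 and Nanog) and 1 lower (Lin28a), against 2.67% and 7.08% of all anchors tested. DESeq2 called 0 higher and 1 lower, against 0.459% and 2.06%. At an unadjusted p under 0.05, edgeR had 7 higher and 1 lower, against 8.77% and 13.2% of all anchors. DESeq2 had 3 higher and 1 lower at that limit, against 3.58% and 6.75%. Without D2 replicate 1 the median log2 fold change of the 14 went from 0.29 to -0.01. Lin28a, an RNA-binding protein that blocks let-7 maturation, had 811 and 748 counts in B6 and 386 and 466 in D2 (log2 fold change -0.84 ± 0.17, edgeR adjusted p = 0.000358; -0.81 without D2 replicate 1). Sox2, the partner of Oct4, had 503 and 596 counts in B6 and 918 and 713 in D2 (0.62 ± 0.18, edgeR adjusted p = 0.0185; 0.31 without D2 replicate 1). Pou5f1, which encodes Oct4, had 1336 and 1339 counts in B6 and 1365 and 998 in D2 (-0.12 ± 0.19, edgeR adjusted p = 0.776), and -0.49 without D2 replicate 1.

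Of 19 genes of Nodal and GDF signalling, the pathway of Gdf3, 16 had an anchor and 0 were called with edgeR or DESeq2. At an unadjusted p under 0.05, edgeR had 2 higher in D2 and 0 lower, against 8.77% and 13.2% of all anchors. The median log2 fold change of these 16 was 0.11, and Nodal itself, with 1270 and 1200 counts in B6 and 1496 and 1340 in D2, had 0.24 ± 0.18 (edgeR, adjusted p = 0.475), and 0.05 without D2 replicate 1. Without that library the median of the 16 was -0.01. Of 20 genes of glucose uptake and glycolysis, 17 had an anchor. With edgeR 1 of them, Slc2a3, was called higher and 0 lower, against 2.67% and 7.08% of all anchors. DESeq2 called 0. At an unadjusted p under 0.05, edgeR had 6 higher and 0 lower, against 8.77% and 13.2% of all anchors. Without D2 replicate 1 the log2 fold change of Slc2a3 went from 0.60 to 0.32. That of Gpi1, the gene of glucose-6-phosphate isomerase, went from -0.33 to -0.68 (618 and 512 counts in B6, 497 and 370 in D2). The median of the 17 went from 0.16 to 0.08. Slc2a1, the gene of the related transporter GLUT1, had 1686 and 1531 counts in B6 and 1446 and 1491 in D2 (-0.09 ± 0.18, edgeR adjusted p = 0.833; -0.17 without D2 replicate 1). The 3 start-site anchors of these lists whose centred log2 CPM values over the 4 libraries lay nearest those of Nanog were Gdf3 (Euclidean distance 0.199), which shares pairs with it, Tbx3 (0.243), a T-box factor of the pluripotency network, and Sox2 (0.261).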

How the data were processed

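HiChIP for H3K27ac was done in 4 libraries, 1 per line and 2 per strain, with read pairs of 75 bp. The series table holds raw counts per pair of anchors, deposited by the authors with no normalization. The single-library files hold the same counts (all nonzero values were equal) and a value per pair that was taken as the q-value of the authors' loop caller; those files have no header. HiC-Pro 2.11.4, DESeq2 and mm10 are named, per the submitters' processing notes, without their roles; the caller's name and settings, and filters on reads, are not given in the sources used here. Genes and starts are from GENCODE M21 and sequences from GRCm38.p6.

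CPM values are counts divided by the library total and multiplied by 1000000. The strains were compared with edgeR 4.0.16 (quasi-likelihood, TMM, strain as the only term) on all pairs, or sums per anchor, that reached 20 counts in total, with Benjamini-Hochberg adjustment over all tested features. The SE was derived from the log2 fold change and its F statistic. DESeq2, other scalings and count minimums, a replicate block and each library left out were alternatives. Tests were first run on simulated counts. Replicate numbers belong to separate lines, and the main fit treated the libraries as unpaired. Deviations of same-numbered libraries had r = -0.00015 over tested loops. With as few as 20 counts per loop over the 4 libraries, an r near 0 cannot exclude a shared batch.

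Named anchors were those over protein-coding starts or known Nanog enhancers; 1 anchor is counted in the totals and not reported here by itself. Genes of the lists were named after their values were seen. Named loops were pairs of the 4 genes, the 10 within the window and 5 to the outside with the most counts, and called loops. The members, lists and rules were chosen with earlier results of these data known. Intervals for single shares are not given; precision is set by the number of lines.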

Additional observations from a re-analysis of the deposited data

How the results depend on the processing

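Of the loops of the locus, 5 were called higher in D2. The number was 0 with DESeq2, 10 with library totals without TMM factors and 12 with no count minimum, and it ranged from 0 to 19 as each library was left out. It was 4 or 5 under the other scalings, a count minimum of 50, and both stricter definitions of the members. Over all 108034 tested loops, 531 were called higher in the main fit and 685 without TMM factors. With no count minimum, 463 of all 1513030 pairs were. For anchors, 6 were called; the number was 2 with DESeq2, 0 with no count minimum (8 at an unadjusted p under 0.05), 0 to 8 as each library was left out, and 6 or 7 otherwise. Over all anchors, 1383 of 51820 were called higher in the main fit and 369 of 56562 with no count minimum. With the replicate block, 4 loops (all among the 5) and 7 anchors (the 6 and Gdf3) were called. The main fit treated the lines as unpaired. Scaling by the totals of the 10000 pairs with the most counts, chosen after the data were seen, gave 4 loops and 6 anchors and lowered the log2 ratio of locus shares from 0.52 to 0.33. That ratio was 0.27 without D2 replicate 1 and 0.74 without D2 replicate 2, and 0.51 to 0.56 under the other alternatives. The within-window share was 4.01 percentage points higher in D2, 1.68 when only pairs with a q-value under 0.01 were counted, and 2.81 to 5.21 as each library was left out. Of the 22 named loops and 16 anchors, 2 loops and 6 anchors changed sign under at least 1 alternative; none of those was among the calls. The cause of these shifts was not tested. DESeq2's filter gave no adjusted p for 114 of the 174 loops. Loops under 20 counts were not tested, and the number of lines limits the precision.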
